A study of Mus musculus with 2 samples.

Results

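10 tetraspanin genes (Cd9, Cd81, Cd63, Cd82, Cd151, Tspan2, Tspan3, Tspan5, Tspan7 and Tspan18) were measured across the cell types of mouse entorhinal cortex. All 10 were found by symbol among the 31053 genes of the deposited tables, and the set was chosen by the OLE-to-vehicle ratios of Cd9 and Cd81, which were among the highest of all genes in several glial types. The ratios between treatments below are therefore descriptions of these libraries. Genes were not ranked by level for the choice, but a ratio in glia needs enough counts there. The glial levels of Cd9 and Cd81 are therefore not independent of the choice and are descriptions too. The tissue came from male APP/PS1 mice, a transgenic line that deposits amyloid in the brain, and every mouse was 18 months old. In the OLE group the mice drank N-oleoyl-leucine (C18:1-Leu) at 25 mg/kg/day from 15 to 18 months of age, and in the vehicle group they received DMSO over the same months, both in alkaline drinking water. Each group was a single library of nuclei from 5 pooled mice, so no replicate of a treatment exists, no test between treatments was run, and animals cannot be told apart within a pool. Neither library came from mice without the transgenes.

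Tetraspanins are small membrane proteins that cross the membrane 4 times and gather integrins, immunoglobulin-superfamily proteins and proteases into patches of the plasma membrane and of endosomes. Cd9, Cd81 and Cd63 are abundant on extracellular vesicles, and Cd9 and Cd81 bind the same partners, Igsf8 and Ptgfrn. In brain, Cd9 and Tspan2 are known from the oligodendrocyte lineage and myelin, Cd9 and Cd63 are raised in microglia that gather at amyloid plaques, and Tspan7 takes part in the traffic of AMPA receptors in neurons. Tspan5 belongs to the subgroup that carries the metalloprotease Adam10 out of the endoplasmic reticulum.

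Promoter windows from RefSeq (GRCm38.p6), each from 250 bases before to 50 bases after the start of transcription, were found for 9 of the 10 genes. The windows of Cd9 (chr6:125494711-125495010, minus strand) and Cd81 (chr7:143052500-143052799, plus strand) are shown because these genes had the largest OLE-to-vehicle ratios in glia among the members with at least 100 UMIs in a type, and that of Tspan5 (chr3:138741958-138742257, plus strand) because its ratio, as reported here, lay below 0 in each of the 6 types compared. Capitals mark the GC box GGGCGG on either strand.
Cd9: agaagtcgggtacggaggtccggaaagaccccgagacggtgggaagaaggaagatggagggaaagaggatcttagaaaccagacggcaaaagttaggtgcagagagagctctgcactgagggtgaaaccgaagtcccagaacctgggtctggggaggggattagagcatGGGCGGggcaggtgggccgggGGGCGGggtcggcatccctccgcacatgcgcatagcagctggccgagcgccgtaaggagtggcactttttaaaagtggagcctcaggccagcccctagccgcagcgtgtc
Cd81: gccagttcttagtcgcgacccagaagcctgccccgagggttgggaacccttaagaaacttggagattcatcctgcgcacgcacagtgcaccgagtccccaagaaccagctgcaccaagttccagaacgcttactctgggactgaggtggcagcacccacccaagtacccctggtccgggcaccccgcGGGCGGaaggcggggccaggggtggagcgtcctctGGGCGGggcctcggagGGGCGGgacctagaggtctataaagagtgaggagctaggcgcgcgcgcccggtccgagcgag
Tspan5: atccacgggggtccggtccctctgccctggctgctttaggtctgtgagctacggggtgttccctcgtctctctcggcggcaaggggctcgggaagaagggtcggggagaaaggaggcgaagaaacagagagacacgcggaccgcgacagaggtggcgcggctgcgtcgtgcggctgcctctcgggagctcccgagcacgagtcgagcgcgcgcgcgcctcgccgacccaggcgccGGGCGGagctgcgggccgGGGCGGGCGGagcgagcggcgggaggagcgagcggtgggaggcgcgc
The GC box stood 2 times in the Cd9 window, 3 times in that of Cd81 and 3 times in that of Tspan5, where 2 copies overlap. It occurred in 7 of the 14 windows of the 9 genes, against 35.7% of the 32851 mouse windows. Some genes have more than 1 window, and 6 of the 9 had the box in at least 1 (Cd9, Cd81, Cd82, Cd151, Tspan5 and Tspan7). The sequence TATAAA was found in 1 of the 14 windows, that of Cd81, against 13.6% of all windows. CCAAT was found in 2 of the 14, of Cd82 and Tspan3, against 37.4% of all windows. The GC content was 61.3% for Cd9, 65.7% for Cd81 and 73.3% for Tspan5, with a median of 52.7% over all windows. These matches are descriptions of the letters, and any part of them in the ratios was not tested.

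The vehicle library held 6745 nuclei and 70845739 unique molecular identifiers (UMIs, each marking 1 captured RNA molecule), and the OLE library 6173 nuclei and 69485537 UMIs, with 14 barcodes in both. After the nuclei with the highest doublet scores had been left out, 12235 nuclei were clustered, and clusters were called glutamatergic-like, microglia-like and so on from marker genes; the plain names below stand for these calls. The 6 types compared held 1879 vehicle and 1836 OLE glutamatergic, 334 and 348 GABAergic, 119 and 136 astrocyte, 101 and 84 oligodendrocyte precursor, 588 and 528 oligodendrocyte, and 334 and 268 microglia nuclei. A further 2913 vehicle and 2499 OLE nuclei stayed unnamed. They included a cluster with 2234 vehicle but 309 OLE nuclei and another with 250 vehicle but 1731 OLE nuclei, so that the libraries stood apart there. A cluster of 39 nuclei was found in the OLE library alone, though no such cluster formed where doublets were kept. Neither kind entered the comparisons. Levels below are counts-per-million (CPM), the UMIs of a gene scaled to all UMIs summed over the nuclei of a type in a library, with exact 95% Poisson intervals for counting error only. Ratios are log2(OLE/vehicle) of these levels with exact 95% binomial intervals, also for counting error only.

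Cd9, the best known tetraspanin of microglia and of the oligodendrocyte lineage, was far higher in glia than in neurons. In microglia its level was 666 CPM in the vehicle library and 917 in the OLE library, above every other type in both. In oligodendrocyte precursors it was 157 and 358, and in oligodendrocytes 158 and 310.0. Both types came after microglia, and their order changed between the libraries. Astrocytes had 44.8 and 69.8 CPM, and glutamatergic nuclei 4.79 and 4.67. The mean level in microglia was 167 times that in glutamatergic nuclei, and the intervals of glutamatergic and GABAergic nuclei overlapped. The log2 ratio was 1.19 (0.87 to 1.52) in precursors, 0.97 (0.77 to 1.17) in oligodendrocytes and 0.46 (0.30 to 0.62) in microglia. In glutamatergic nuclei it was -0.04 (-0.33 to 0.26), and 0.45 where unnamed clusters with glutamatergic markers were added to them. In astrocytes and GABAergic nuclei fewer than 100 UMIs of Cd9 were counted in all.

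Cd81, a partner of Cd9 on cell surfaces and vesicles, was spread more evenly. Its level was 309 CPM in vehicle and 515 in OLE microglia, 207 and 479 in astrocytes, 201 and 332 in oligodendrocyte precursors, and 186 and 336 in oligodendrocytes. Microglia were ahead of astrocytes in both libraries, but the intervals overlapped in one or both, as they did between the other glial neighbours. Neurons were lower, at 51.4 and 92.7 in GABAergic and 31.3 and 51.0 in glutamatergic nuclei, so that the mean in microglia was 10.0 times that in glutamatergic nuclei. The OLE level was above the vehicle level in all 6 types. The log2 ratio ranged from 0.71 (0.61 to 0.81) in glutamatergic nuclei to 1.21 (0.94 to 1.49) in astrocytes, and no interval reached 0. In astrocytes this was a 2.32-fold higher level, counted from 157 vehicle and 419 OLE UMIs.

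**Figure D1:**
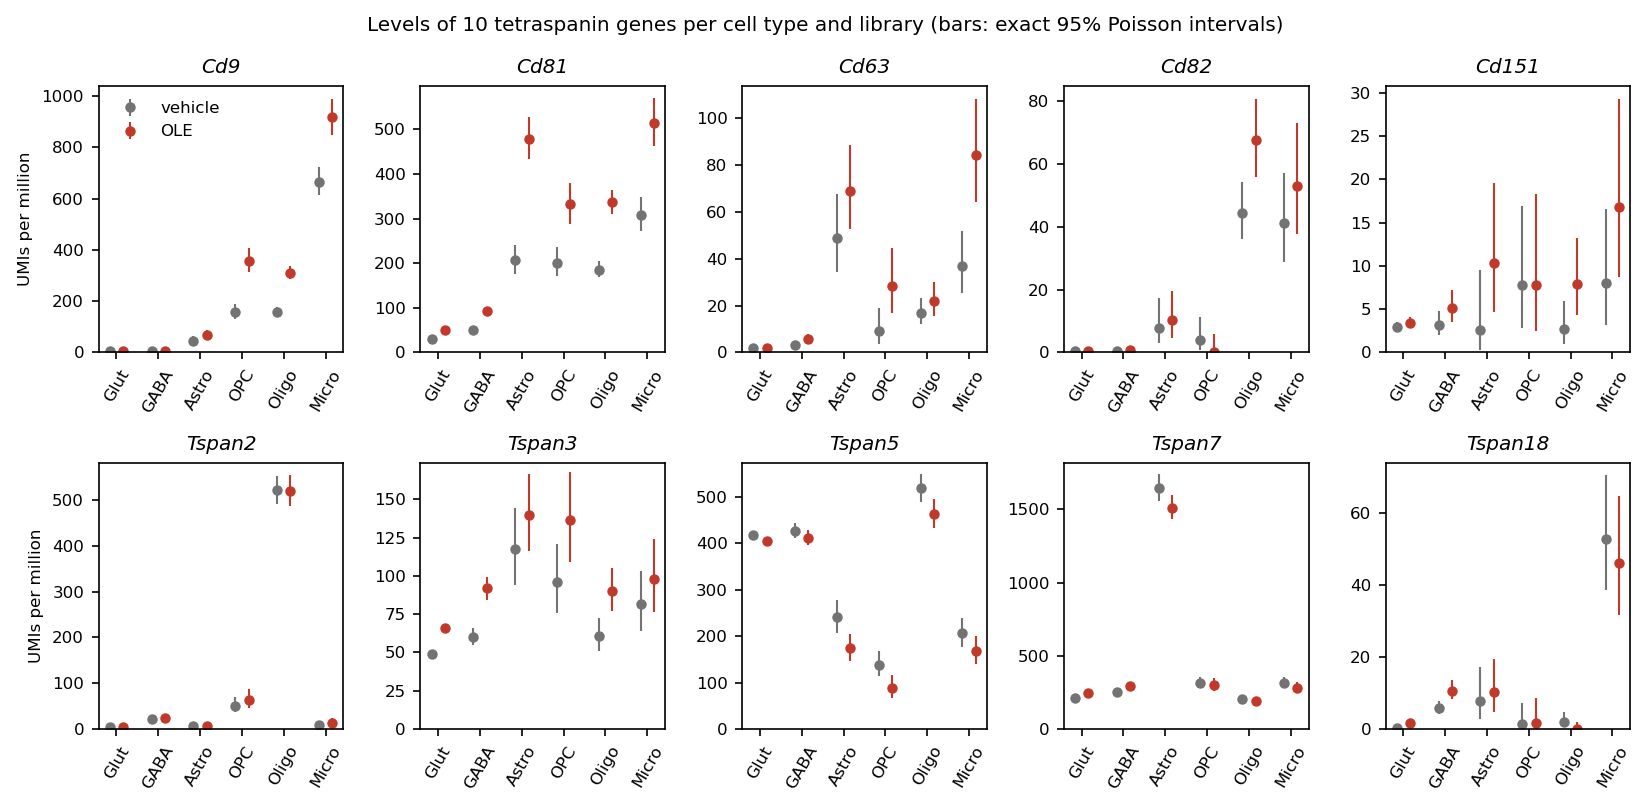
CPM (linear axes, each starting at 0) of the 10 genes in 6 cell types, grey for the vehicle and red for the OLE library, with exact 95% Poisson intervals; Glut, GABA, Astro, OPC, Oligo and Micro are glutamatergic and GABAergic nuclei, astrocytes, precursors, oligodendrocytes and microglia. Cd9 stands at 666 and 917 in microglia against 4.79 and 4.67 in glutamatergic nuclei, and Tspan7 at 1647 and 1511 in astrocytes.

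Cd63, a tetraspanin of late endosomes and lysosomes, was sparse in nuclei. Microglia had 36.8 CPM in the vehicle library and 84.0 in the OLE library, and astrocytes 48.8 and 68.6, so the first place changed between the libraries. Oligodendrocytes and their precursors followed, between 9.09 and 28.2, and both neuronal types were below 6. Only glutamatergic nuclei, with 74 and 70 UMIs, reached 100 UMIs in the sum of the libraries, and there the log2 ratio was 0.04 (-0.46 to 0.53). In microglia the 32 vehicle and 60 OLE UMIs gave 1.19 (0.55 to 1.86).

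Cd82 and Cd151, which bind integrins, differed in where they were found. Cd82 was highest in oligodendrocytes, at 44.4 and 67.6 CPM, and in microglia, at 41.4 and 53.2, and these types could not be ordered beyond their intervals. In astrocytes it was at 7.91 and 10.3, and in glutamatergic nuclei 24 and 20 UMIs were counted. No UMI of Cd82 was counted in the OLE precursors, which allows up to 4.70 CPM by a limit of 3 counts. The log2 ratio of Cd82 in oligodendrocytes was 0.61 (0.21 to 1.01). Cd151, the partner of laminin-binding integrins, was below 20 CPM in all 6 types, with microglia at 8.04 and 16.8. Precursors, astrocytes and oligodendrocytes lay between 2.64 and 10.3, and none of these 4 glial types could be ordered. In glutamatergic nuclei 130 and 138 UMIs gave a log2 ratio of 0.20 (-0.15 to 0.56).

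Tspan2, which accumulates as oligodendrocytes differentiate, had the sharpest peak of the set. It stood at 521 CPM in vehicle and 519.6 in OLE oligodendrocytes, and next at 50.7 and 64.2 in their precursors. GABAergic nuclei had 22.1 and 23.2, above glutamatergic nuclei at 3.50 and 3.67. The log2 ratio was -0.00 (-0.13 to 0.12) in oligodendrocytes, 0.07 (-0.27 to 0.40) in GABAergic and 0.07 (-0.27 to 0.41) in glutamatergic nuclei. In the same oligodendrocyte nuclei the log2 ratio of Cd9 was 0.97.

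Tspan3, known as a partner of the myelin tight-junction protein claudin-11, was the most even. Its vehicle levels lay between 48.7 CPM in glutamatergic nuclei and 117 in astrocytes, and its OLE levels between 65.7 and 139.6 in the same types. The mean in astrocytes was 2.25 times that in glutamatergic nuclei. Astrocytes, precursors and microglia stood in this order in both libraries, but with overlapping intervals. The OLE level was above the vehicle level in all 6 types, with log2 ratios from 0.25 (-0.16 to 0.66) in astrocytes to 0.61 (0.42 to 0.79) in GABAergic nuclei. The interval lay above 0 in 4 types, and included 0 in astrocytes and microglia.

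Tspan5, of the Adam10-carrying subgroup, had the most UMIs of all members, 28908 in the vehicle and 26649 in the OLE library. It was highest in oligodendrocytes, at 519 and 464 CPM, followed by GABAergic nuclei at 427 and 413 and glutamatergic nuclei at 417 and 406. Astrocytes had 241 and 174, microglia 207 and 168, and oligodendrocyte precursors 139 and 89.2. The OLE level was below the vehicle level in all 6 types as reported. The log2 ratio was lowest in precursors, at -0.64 (-1.13 to -0.16), and in astrocytes, at -0.47 (-0.79 to -0.15). It was -0.16 (-0.29 to -0.03) in oligodendrocytes, -0.30 (-0.65 to 0.04) in microglia, -0.05 (-0.13 to 0.02) in GABAergic and -0.04 (-0.07 to -0.01) in glutamatergic nuclei. The lowest ratio rests on 107 vehicle and 57 OLE UMIs and was -0.13 without doublet removal. In astrocytes the direction turned, to 0.13 without doublet removal and 0.28 after thinning to equal depth, and in glutamatergic nuclei thinning gave 0.08, so no direction of Tspan5 is read in these types.

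Tspan7, carried by the X chromosome and mutated in some families with intellectual disability, was an astrocyte gene in these nuclei. Its level was 1647 CPM in vehicle and 1511 in OLE astrocytes, and between 192 and 316 in the 5 other types. Precursors and microglia, at 316 and 315 in the vehicle library, could not be ordered, and oligodendrocytes were lowest, at 205 and 192. The log2 ratio was 0.19 (0.15 to 0.23) in glutamatergic and 0.21 (0.11 to 0.30) in GABAergic nuclei, and -0.12 (-0.24 to -0.01) in astrocytes, where thinning gave 0.01. In precursors, oligodendrocytes and microglia it was -0.06, -0.10 and -0.16, with intervals that include 0.

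Tspan5 and Tspan7 are abundant in neurons, so their levels in glia were also computed after the glutamatergic profile of the same library had been subtracted, in the amount set by 20 neuronal genes. The amount came to 27.4% of the UMIs of vehicle and 25.7% of those of OLE microglia, and to 12.8% and 10.8% in astrocytes. It was 18.0% and 16.5% in precursors, and 18.5% and 15.7% in oligodendrocytes. Whether glia make RNA of the neuronal genes themselves was not tested. The summed level of the neuronal genes was higher in the vehicle than in the OLE library in all 4 glial types, for example 8488 against 7351 CPM in astrocytes. After subtraction Tspan5 stood at 126 and 84.7 CPM in microglia and at 77.3 and 26.4 in precursors, where the log2 ratio became -1.55. That ratio rests on the 49.3 vehicle and 14.2 OLE UMIs that remained, and no interval is given for it. Of the Tspan7 UMIs of microglia, 223 of 274 vehicle and 156 of 201 OLE UMIs remained, which on the reduced total gave 348 and 291 CPM. Cd9 in microglia moved to 904 and 1218, and Cd81 to 409 and 668, with the OLE level still the higher. How much of the Tspan5 ratio in glia comes with neuronal RNA was not tested beyond this subtraction.

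Tspan18, known from endothelium, was rare in most types. Microglia had 52.9 and 46.2 CPM, ahead of astrocytes at 7.91 and 10.3 and GABAergic nuclei at 5.71 and 10.6. A vascular cluster of 21 vehicle and 42 OLE nuclei, in which 8 of 8 endothelial and 7 of 8 mural markers were raised, so that it mixes both types, held 1 UMI in all. In glutamatergic nuclei 10 vehicle UMIs and 63 OLE UMIs were counted, of which 42 OLE UMIs came from 18 nuclei of a cluster led by Ndst4, Dach1 and Otof. The log2 ratio in GABAergic nuclei, with 40 and 68 UMIs, was 0.90, with a lower bound of 0.31. One GABAergic cluster held 37 of the vehicle and 56 of the OLE UMIs.

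The largest store of Tspan18 was the cluster of 39 nuclei that was found in the OLE library alone. It had 109 UMIs in 26 nuclei, or 189 CPM, of the 363 Tspan18 UMIs of that whole library. Its leading genes were Glis3, Tspan18, Maml2 and C1ql2, with Prox1, a transcription factor best known from dentate granule neurons, also among the first 10, and 5 of 15 glutamatergic markers were raised in it. Since no vehicle nucleus fell in this cluster, its presence and the treatment cannot be told apart from the difference between the pools. With these nuclei counted as glutamatergic the log2 ratio of Tspan18 there was 4.20 instead of 2.77. It was 3.63 without doublet removal, where Glis3 was among the leading genes of a glutamatergic cluster of 187 vehicle and 273 OLE nuclei.

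**Figure D2:**
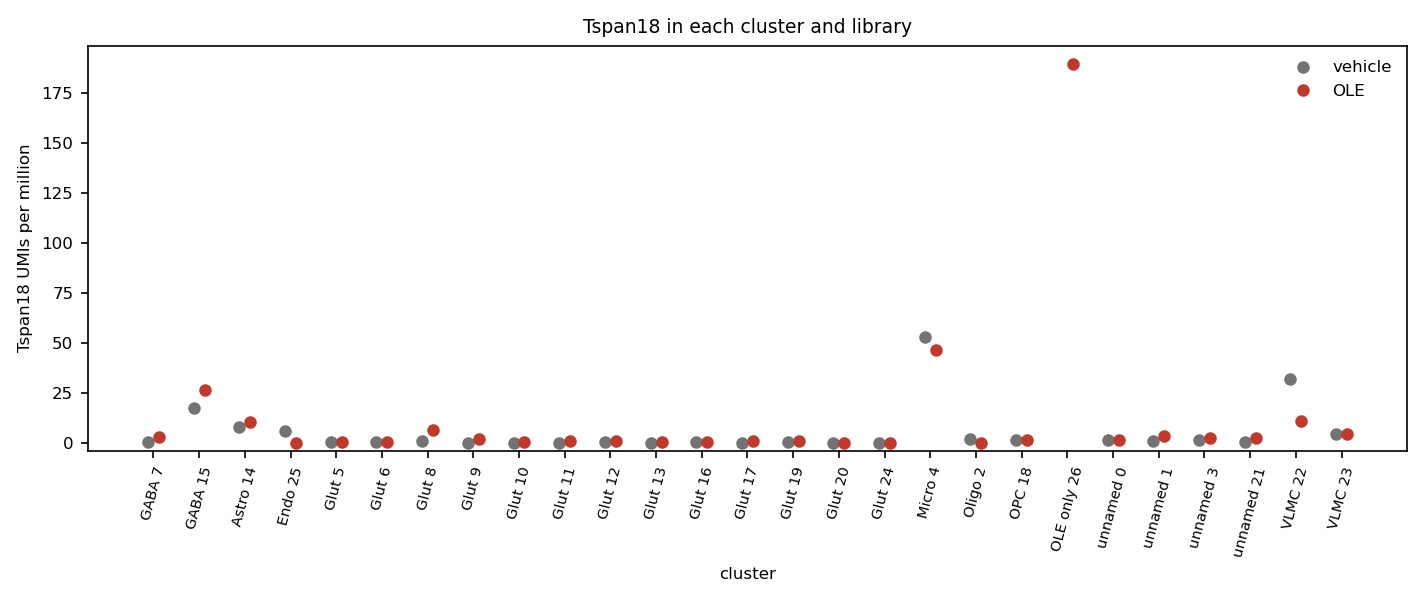
Tspan18 CPM in each of the 27 clusters (linear axis), grey for vehicle and red for OLE; labels give the type (Endo, mixed endothelial and mural; VLMC, vascular leptomeningeal) and the cluster number, and no error bars are drawn. The cluster found in the OLE library alone stands at 189, microglia at 52.9 and 46.2.

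Levels of different genes were compared per kilobase of gene, since introns were counted. Whether counts rise in proportion to gene length was not measured, so the order between genes holds on this scale only. On this scale (CPM per kb) Cd81, with a gene of 15.2 kb, stood at 20.3 in vehicle and 33.9 in OLE microglia, close to Cd9 (34.5 kb) at 19.3 and 26.5. In astrocytes Tspan7 (111 kb) stood at 14.8 and 13.6, against 13.6 and 31.5 for Cd81, so the order of these genes differed between the libraries. In oligodendrocytes Cd81 led on this scale, at 12.2 and 22.1. Tspan2 (67.0 kb) stood at 7.78 and 7.76, Cd9 at 4.58 and 8.98, and Tspan5 (166 kb) at 3.13 and 2.80. In CPM Tspan2 was ahead of Cd81 there, at 521 and 519.6 against 186 and 336. In glutamatergic nuclei the 4 highest members were Cd81 at 2.06 and 3.36, Tspan5 at 2.52 and 2.45, Tspan7 at 1.92 and 2.20, and Tspan3 (33.8 kb) at 1.44 and 1.95.

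The share of nuclei with a UMI was compared after each nucleus had been thinned to 1000 UMIs, which left out 5 shallower nuclei, because the median depth was 2438.5 and 2348 UMIs in microglia but 20823 and 19225 in glutamatergic nuclei. Cd9 was then seen in 43.1% of vehicle and 51.1% of OLE microglia, against 0.585% and 0.272% of glutamatergic nuclei, which hold little Cd9. These values are no measure of background in glia, which are shallower and for which it was not measured. Without thinning the shares were 67.7% and 76.5% in microglia and 9.05% and 8.77% in glutamatergic nuclei. In precursors the thinned share of Cd9 was 10.9% and 28.6%, and in astrocytes the share of Cd81 was 19.3% and 33.1%. Tspan2 was seen in 37.0% and 37.9% of oligodendrocytes, and Tspan7 in 73.9% and 77.2% of astrocytes.

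Enough UMIs for a count, at least 100 in the sum of the libraries, were found for 35 of the 60 pairs of member and type. The OLE level was the higher in 23 of the 35 pairs, against 59.5% of the 38768 pairs of any gene and type with as many UMIs. The interval of the ratio lay above 0 in 17 pairs (18% of all), below 0 in 5 (7.76% of all) and included 0 in 13. A log2 ratio of 0.5 or more was found in 13 pairs and one of -0.5 or less in 1, Tspan5 in precursors. In glutamatergic nuclei 1 of 8 members passed 0.5, while 5.64% of the 14072 genes measured did, and 0 passed -0.5 (0.483% of genes). In GABAergic nuclei it was 3 of 6 (7.27% of 9642 genes), with 0 past -0.5 (0.57% of genes). In astrocytes 1 of 4 members passed (4.53% of 2978 genes), with 0 past -0.5 (3.86%). Precursors had 3 of 5 members past 0.5 (4.72% of 2584 genes) and 1 past -0.5 (3.25%). Oligodendrocytes had 4 of 7 (4.69% of 5839 genes) and 0 past -0.5 (1.76%), and microglia 1 of 5 (3.67% of 3653 genes) and 0 past -0.5 (2.52%). These ratios chose the set, so nothing is read from the counts. Cd81 made up 6 of the 13 pairs, Tspan3 3, Cd9 2, and Cd82 and Tspan18 1 each. Just inside the value of 0.5 lay Tspan3 in precursors at 0.50, and just outside lay Cd9 in microglia at 0.46.

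**Figure D3:**
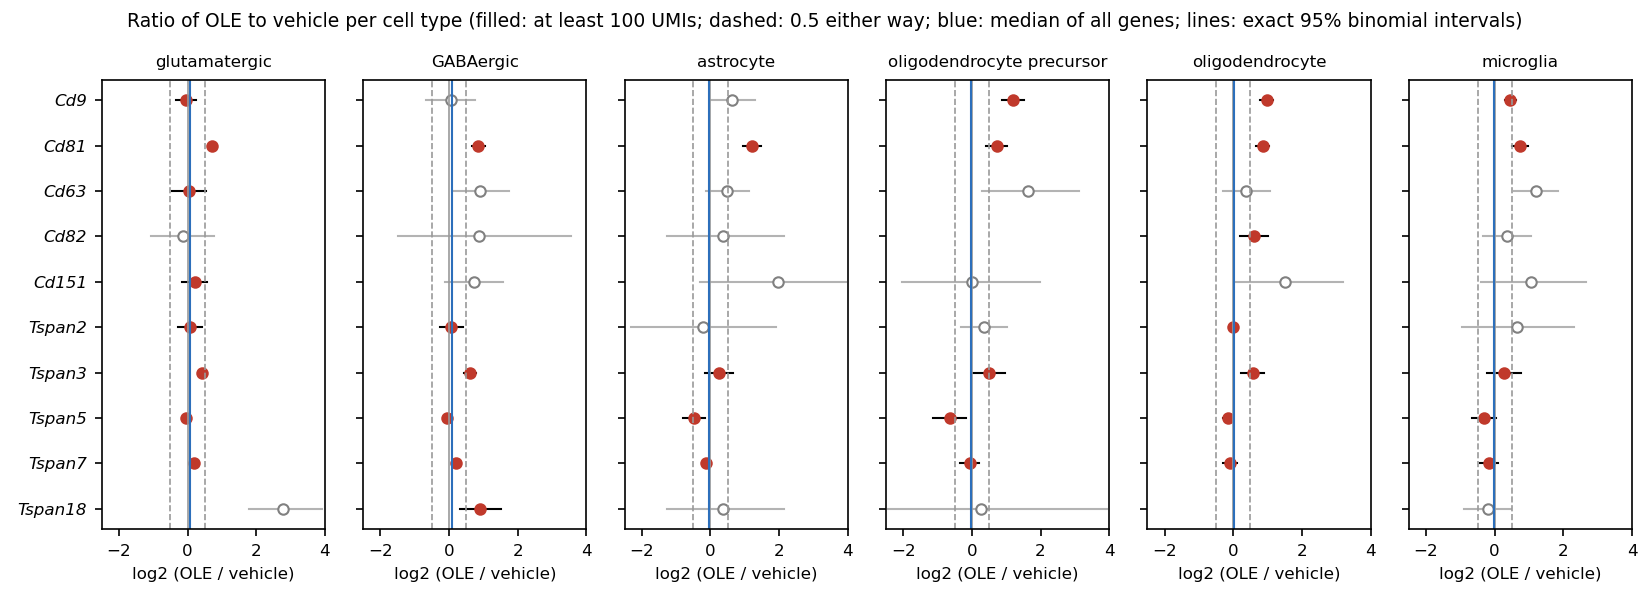
log2(OLE/vehicle) of each gene in 6 cell types with exact 95% binomial intervals, which are drawn to the edge of the panel where they go beyond it. Filled points have at least 100 UMIs, dashed lines mark 0.5 and -0.5, and the blue line is the median of all genes. Cd81 lies to the right of 0.5 in all panels and Tspan5 to the left of 0, though thinning turned its direction in astrocytes and glutamatergic nuclei.

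The median log2 ratio of the members measured was 0.13 in glutamatergic nuclei, 0.41 in GABAergic nuclei, 0.06 in astrocytes, 0.50 in precursors, 0.57 in oligodendrocytes and 0.26 in microglia. Over all genes measured the medians lay between -0.03 and 0.08. The ratios of Cd9 and Cd81 chose the set, so nothing is read from this difference. Within the members the spread was wide. In precursors it ran from -0.64 for Tspan5 to 1.19 for Cd9, and in astrocytes from -0.47 for Tspan5 to 1.21 for Cd81.

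The ratios were also read within clusters. Among the 13 glutamatergic clusters Cd81 had at least 100 UMIs in 12, and its log2 ratio was above 0 in all 12, from 0.52 to 0.88. Tspan3 was above 0 in 12 of 12, from 0.02 to 0.83, and Tspan7 in 13 of 13, from 0.04 to 0.26. Tspan5 was above 0 in 6 of 13, from -0.14 to 0.30, and its level ran from 101 to 642 CPM over both libraries. The clusters share the same pair of libraries and are not replicates of a treatment. Over all genes measured in glutamatergic nuclei the median log2 ratio was 0.07, itself above 0. Counts over clusters are not given for all genes, so nothing is read from those of the members.

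Microglia split into a subcluster of 166 vehicle and 135 OLE nuclei in which 8 of 10 homeostatic genes were raised, a subcluster of 163 and 125 nuclei with 11 of 14 disease-associated genes raised, and 13 nuclei led by F13a1 and Mrc1. Over both libraries Cd9 stood at 568 CPM in the homeostatic-like and 1018 in the disease-associated-like subcluster. Cd63 was likewise lower in the first, 37.8 against 75.3. Cd81 was higher in it, at 471 against 343. The intervals of Cd82 overlapped, at 58.6 against 35.7, from 20 vehicle and 25 OLE against 16 and 12 UMIs. Tspan18, one of the leading genes of the homeostatic-like subcluster, stood at 97.6 against 5.10. The subclusters were drawn from all genes of these nuclei, so these are descriptions. The log2 ratio of Cd9 was 0.44 (0.16 to 0.71) in the homeostatic-like and 0.47 (0.27 to 0.68) in the disease-associated-like subcluster, and that of Cd81 was 0.73 (0.43 to 1.04) and 0.82 (0.45 to 1.18).

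**Figure D4:**
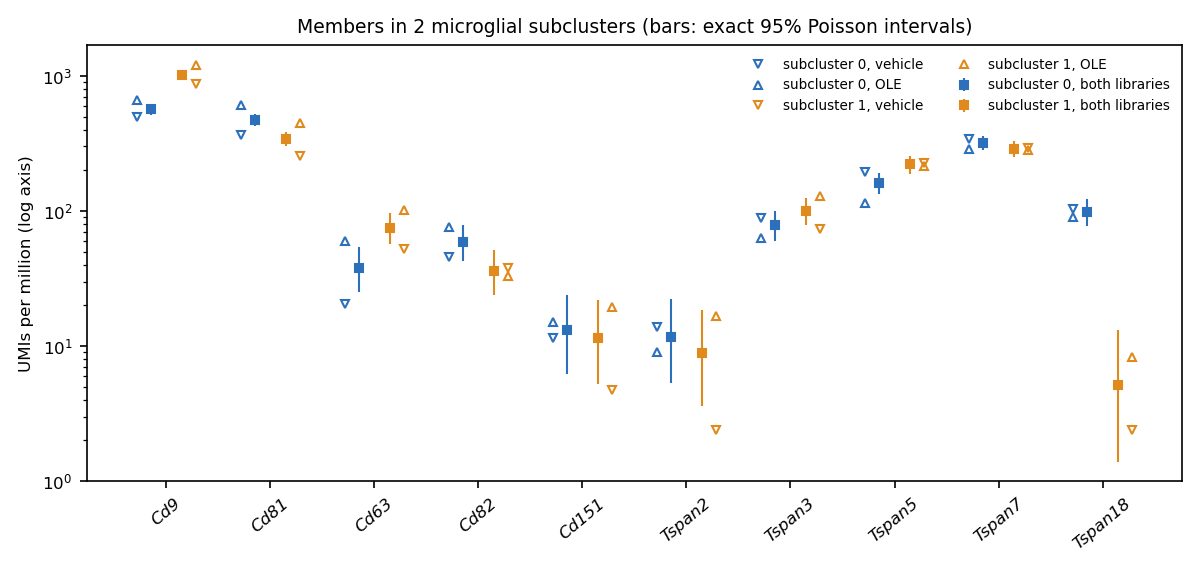
CPM (log axis) of the 10 genes in the homeostatic-like subcluster 0 (blue) and the disease-associated-like subcluster 1 (orange). Squares with exact 95% Poisson intervals are both libraries together, triangles each library; Cd9 is at 568 and 1018, Tspan18 at 97.6 and 5.10.

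Other measures moved with the ratios. Over all genes the median log2 ratio was higher for short than for long genes in each type, for example 0.15 for glutamatergic genes of up to 20 kb and -0.01 for those over 100 kb, and 0.18 against -0.03 in precursors. Cd81 is among the short genes, as are Cd63 and Cd151, whose log2 ratios in glutamatergic nuclei were 0.04 and 0.20. Cd9, at 34.5 kb, had a ratio of 1.19 in precursors, where genes of 20 to 100 kb had a median of -0.01. Tspan5, Tspan7 and Tspan18 are among the long genes, and their ratios did not share a direction. In a list of 40 housekeeping genes translated at the endoplasmic reticulum, as tetraspanins are, 19 of 40 measured had a log2 ratio of 0.5 or more in glutamatergic nuclei, 23 of 38 in GABAergic nuclei, 10 of 19 in precursors, 8 of 33 in oligodendrocytes, 7 of 21 in astrocytes and 3 of 28 in microglia. Over all genes the shares past 0.5 were, in the same order of types, 5.64%, 7.27%, 4.72%, 4.69%, 4.53% and 3.67%. The median ratio of the list was 0.49 in glutamatergic and 0.58 in GABAergic nuclei, and 0.21 in microglia. The part of gene length and of this group of RNAs in the ratios of the members was not tested. Markers of microglia, the type richest in Cd9, summed to 144 and 125 CPM in precursors and to 237 and 223 in oligodendrocytes, against 12365 and 14179 in microglia.

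**Figure D5:**
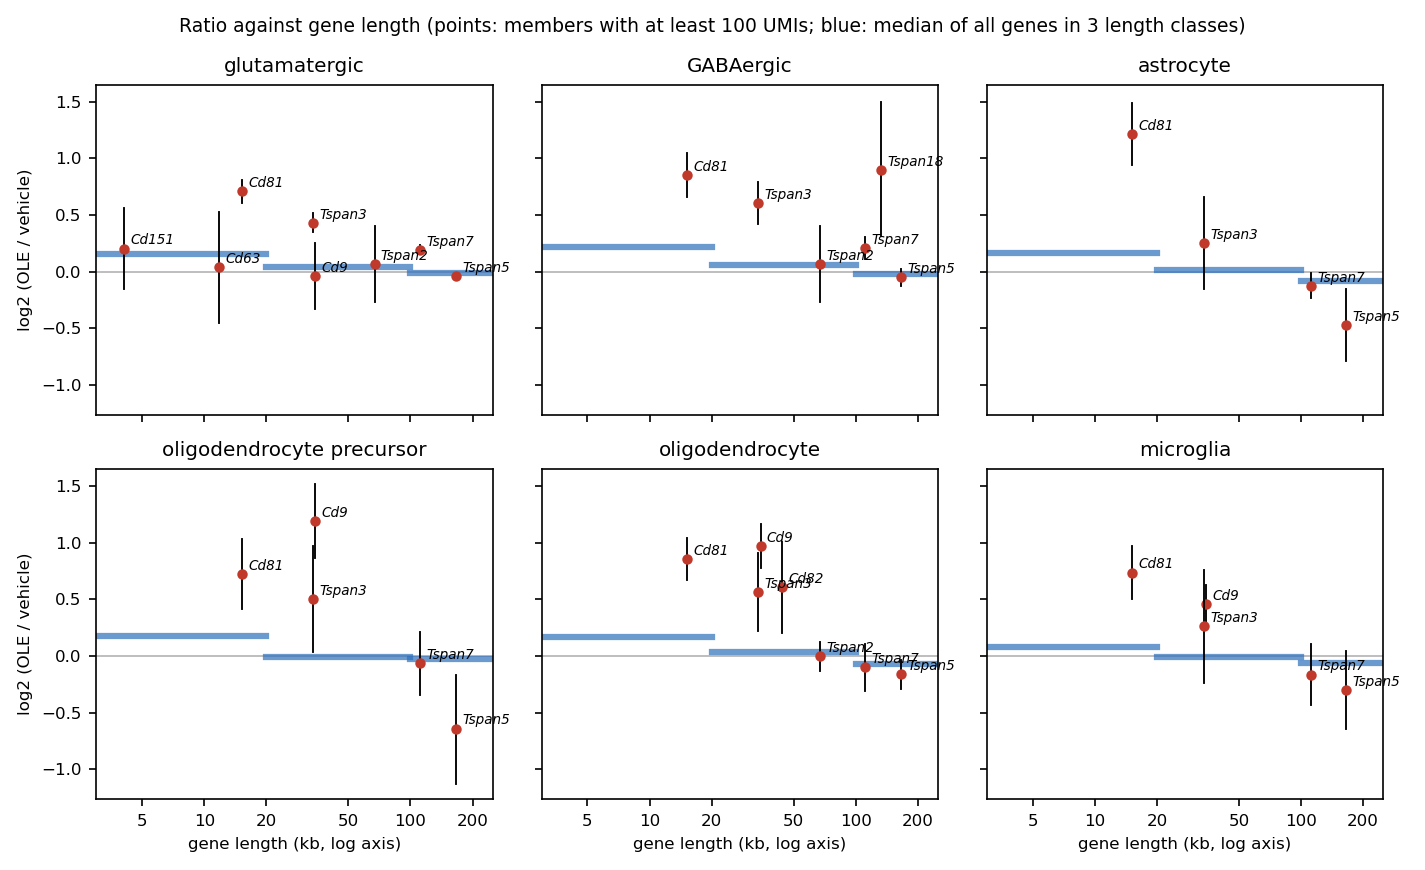
log2(OLE/vehicle) against gene length in kb (log axis) for the members with at least 100 UMIs in each type, with exact 95% binomial intervals. Blue bars are medians of all genes of up to 20 kb, of 20 to 100 kb and over 100 kb; Cd81 at 15.2 kb lies above the bars and Tspan5 at 166 kb below 0.

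The other 21 tetraspanin genes of the tables gave 32 pairs with at least 100 UMIs in a type. Of these, 1 passed 0.5 (3.67% to 7.27% of all genes in a type) and 0 passed -0.5 (0.483% to 3.86%). The pair was Tspan6 in glutamatergic nuclei, from 83 vehicle and 120 OLE UMIs, with a log2 ratio of 0.65 (0.23 to 1.07). The highest levels of the family outside the 10 genes were those of Tspan9 in astrocytes, at 268 and 264 CPM, of Cd37, a leukocyte tetraspanin, in microglia, at 263 and 266, and of Tspan14, which also carries Adam10, in microglia, at 185 and 224.

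A list of 25 partners and cargo genes (integrins, Adam10 and Adam17, Igsf8 and Ptgfrn, AMPA receptor subunits and genes of vesicle formation) gave 100 pairs, with 9 past 0.5 and 0 past -0.5, against 3.67% to 7.27% of all genes past 0.5 in a type. Lamp1, a lysosomal membrane protein, made up 6 of the 9. Its log2 ratio ran from 0.50 (0.40 to 0.61) in glutamatergic nuclei to 1.10 (0.55 to 1.66) in precursors. Igsf8, a shared partner of Cd9 and Cd81, passed 0.5 in astrocytes and GABAergic nuclei only, and Ptgfrn, also shared, in no type. In astrocytes Igsf8 had 96 vehicle and 185 OLE UMIs and a log2 ratio of 0.74 (0.38 to 1.11). GABAergic nuclei had 414 and 554 UMIs of it and a ratio of 0.55 (0.37 to 0.74). Itgb1, the beta subunit of most integrins that tetraspanins bind, was at 42.2 and 65.4 CPM in oligodendrocytes, a log2 ratio of 0.63 (0.23 to 1.04). The median of the list lay between -0.04 and 0.13 in the 6 types.

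The genes whose levels over the 12 sums of type and library ran closest to a member were found by Pearson correlation of log2 levels among 9153 genes. The 12 points are 6 types in the same 2 libraries. For Cd9 they were P2rx7 (r = 0.98), Taf3 (0.98) and Tns3 (0.97), and for Cd81 Anapc16 (0.97), Selenos (0.96) and Rprd2 (0.96). For Tspan2 they were Ankib1 (0.97), Fryl (0.97) and Elovl7 (0.96). For Tspan7 they were AC154683.1 (0.99), Gpam (0.99) and Msi2 (0.98). Tspan3 had lower values, Chst2 (0.91), Sdf2 (0.91) and Zfp160 (0.89), and Tspan5 had Iqsec1 (0.93), Chchd7 (0.92) and Jakmip3 (0.92).

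In the vascular leptomeningeal nuclei, 84 in the vehicle and 82 in the OLE library, Cd9 was at 155 and 330.0 CPM and Cd81 at 195 and 413, log2 ratios of 1.09 (0.75 to 1.45) and 1.08 (0.77 to 1.40). Cd151 stood at 83.9 and 99.6 in the cluster of mixed endothelial and mural nuclei, higher than in any of the 6 types above, though from 14 and 21 UMIs. In the unnamed cluster that held mostly vehicle nuclei Cd81 was at 206 and 209, and in the one that held mostly OLE nuclei at 221 and 241, well above its level in glutamatergic nuclei. The log2 ratios of Cd81 within them were 0.02 (-0.25 to 0.29) and 0.13 (-0.05 to 0.31), and those of Cd9 0.12 (-0.31 to 0.53) and 0.15 (-0.16 to 0.49).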

How the data were processed

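Nuclei from frozen entorhinal cortex were sequenced as 2 droplet libraries, one per treatment. The authors aligned the reads to the mm10 pre-mRNA reference, so that introns were counted (Cell Ranger 3.0.1 per the submitters' processing notes), and deposited whole-number UMI counts per gene and nucleus without normalization. Doublets were scored with Scrublet in scanpy 1.11.5. Its own threshold called 8 vehicle and 7 OLE nuclei, so the top 5% of scores in each library were left out. Nuclei were clustered with Seurat 5.3.0 (SCTransform, 3000 genes, 30 components, Louvain resolution 0.4) and microglia again (15 components, resolution 0.3). A cluster could take the name with the largest share of its markers at least 4 times above the 10th percentile of clusters, and at least 3 of them. It stayed unnamed where more markers of another type were among its 10 leading genes, or where none of its own were among them and another type had at least as many raised markers or 0.5 of its own raised, or its depth was low. This left clusters with up to 15 of 15 glutamatergic markers raised unnamed, since 11 of the oligodendrocyte markers were raised too. The naming rule was set with the clusters known, and the members and gene lists were chosen with earlier results of these data known. Ambient RNA was not removed.

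Counts were summed per type and library. With 1 library per treatment no test was run, and the intervals cover counting error alone. The genes named are the 10 members, the other tetraspanins and partners with at least 100 UMIs and a log2 ratio of at least 0.5 or at most -0.5 in a type, the 3 other tetraspanins with the highest levels, and the 3 genes most alike to each member with at least 1000 UMIs (pseudocount 10 CPM). Lengths of genes were taken from GENCODE vM21, in which 31011 of the 31053 identifiers were found. The calculation of ratios was tested on simulated data. Python 3.11.15, R 4.3.3 and edgeR 4.0.16, for scaling factors only, were used.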

Additional observations from a re-analysis of the deposited data

Results flagged for a closer look

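The log2 ratio of Tspan7 pointed in opposite directions in neurons and astrocytes, with intervals on either side of 0: it was 0.19 in glutamatergic and 0.21 in GABAergic nuclei, and -0.12 in astrocytes. The difference between the types was not tested, since each type has 1 library per treatment and the intervals cover counting error alone. After thinning to 1000 UMIs the astrocyte value was 0.01.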

How the results depend on the processing

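Leaving out a replicate was impossible with 1 library per treatment. No paired analysis was possible because each group is a single library. Counts refer to pairs of member and cell type. Shares of all genes under the alternative settings are not given. Since the ratios of Cd9 and Cd81 chose the set, nothing is read from these counts. Of the 13 pairs past a log2 ratio of 0.5, 2 passed a threshold of 1. For the other tetraspanins and partners the 10 pairs became 1 at a threshold of 1 and 18 with a minimum of 30 UMIs, as these settings admit fewer or more pairs. The count of members past 0.5 lay between 11 and 18 under the remaining alternatives: no doublet removal (16), log-normalized counts (14), a finer clustering (13), TMM scaling (12), means over nuclei (12), thinning (12), subtraction of the neuronal profile (12), mitochondria-rich nuclei left out (13), unnamed clusters counted as glutamatergic (16), and other UMI minimums (18 and 11). Counting the cluster of the OLE library alone as glutamatergic, a setting chosen after seeing the data, gave 14. No pair past 0.5 or -0.5 changed sign under these alternatives. Past -0.5 there was 1 pair as reported, 0 without doublet removal, with a minimum of 200 UMIs or with a threshold of 1, 2 after subtraction and 4 after thinning. Of 571 single ratios recomputed, 540 stayed within their interval. Among ratios whose interval did not reach 0, those of Tspan5 in astrocytes (0.13 without doublet removal, 0.28 thinned), Tspan5 in glutamatergic nuclei (0.08 thinned) and Tspan7 in astrocytes (0.01 thinned) changed direction; the cause was not tested. Of the 31 that left it, 18 did so with thinning. Thinning keeps few UMIs of each neuron, but it also moved ratios in astrocytes and precursors, and the cause was not tested. Thinning left a UMI of Tspan5 in 15.8% of 101 vehicle and 2.38% of 84 OLE precursors. The log2 ratio of Tspan5 in precursors was -0.64 as reported, -0.13 without doublet removal and -2.98 after thinning, so its size depends on these choices. That of Cd81 in astrocytes was 0.80 without doublet removal. The ratio of Tspan7 in glutamatergic nuclei was 0.12 with TMM scaling.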
